A study of Homo sapiens with 12 samples.

Results

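Sites at which dCas9 gave peaks with several different guides, each in its own transfection, were examined in HEK 293T, an established human cell line derived from embryonic kidney and expressing SV40 large T antigen. All peaks of 9 lists, covering 6 guides (sgRNA1 to sgRNA6), were pooled, and peaks that shared at least 1 bp were joined into 43438 regions (positions on hg19). The regions described here were chosen by the number of distinct guides with a peak in them: 840 regions, 1.93% of all, held peaks of 4 (632 regions), 5 (182) or all 6 guides (26). The overlap of the peaks is what chose these regions, so their number, guide make-up, width, position and score rank are descriptions and were not tested.

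In all groups the cells were transfected with dCas9 (a Cas9 that does not cut) and sgRNA1, sgRNA2, sgRNA3, sgRNA4, sgRNA5 or sgRNA6, and were collected after 3 days. Crosslinked DNA was then pulled down with an HA antibody, which binds the HA tag, and the DNA was sequenced (ChIP-seq). The first 3 guides had 2 replicates each, numbered in the labels, and the last 3 had 1 library each. The labels do not state whether the replicates were grown apart, and the spread between them may be technical. A library of dCas9 without a guide belongs to the study but was not analysed here, so it is not known which of the 840 regions also gave a peak without a guide. Read depth is unknown for every library, as the lists hold no read counts.

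Cas9 finds its sites by first recognising a short motif in the DNA, the protospacer adjacent motif, and then pairing the guide with the neighbouring DNA, starting from the seed end closest to that motif. dCas9 carries mutations that remove cutting but leave this search and binding in place. Pairing of the seed alone can hold the protein on DNA for some time, and off-target binding is for this reason more widespread than off-target cutting. Each guide is therefore known to have a set of binding sites of its own, and the sites described here are those where the peaks of most guides coincided.

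The 3 longest lists contributed to nearly all of the 840 regions. A sgRNA6 peak was present in 834 (99.3%), a sgRNA5 peak in 816 (97.1%) and a sgRNA4 peak in 807 (96.1%). sgRNA1 had a peak in 605 (72.0%), sgRNA2 in 328 (39.0%) and sgRNA3 in 204 (24.3%). All of sgRNA4, sgRNA5 and sgRNA6 were present in 778 (92.6%), so that most regions consisted of this trio with 1 or more of the other 3 guides. Of the 840, 576 held exactly 1 of sgRNA1, sgRNA2 and sgRNA3, 231 held 2 of them and 33 held all 3.

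In all, 20 different guide sets occurred. The most frequent was sgRNA1 with the trio, in 364 regions (43.3% of the 840), followed by sgRNA2 with the trio in 135 and sgRNA1 and sgRNA2 with the trio in 103. sgRNA3 with the trio gave 77 regions, sgRNA1 and sgRNA3 with the trio 55, and sgRNA2 and sgRNA3 with the trio 18. Each set that lacked a guide of the trio held 18 regions or fewer. The largest of these was sgRNA1 and sgRNA2 with sgRNA5 and sgRNA6 (18 regions).

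**Figure D1:**
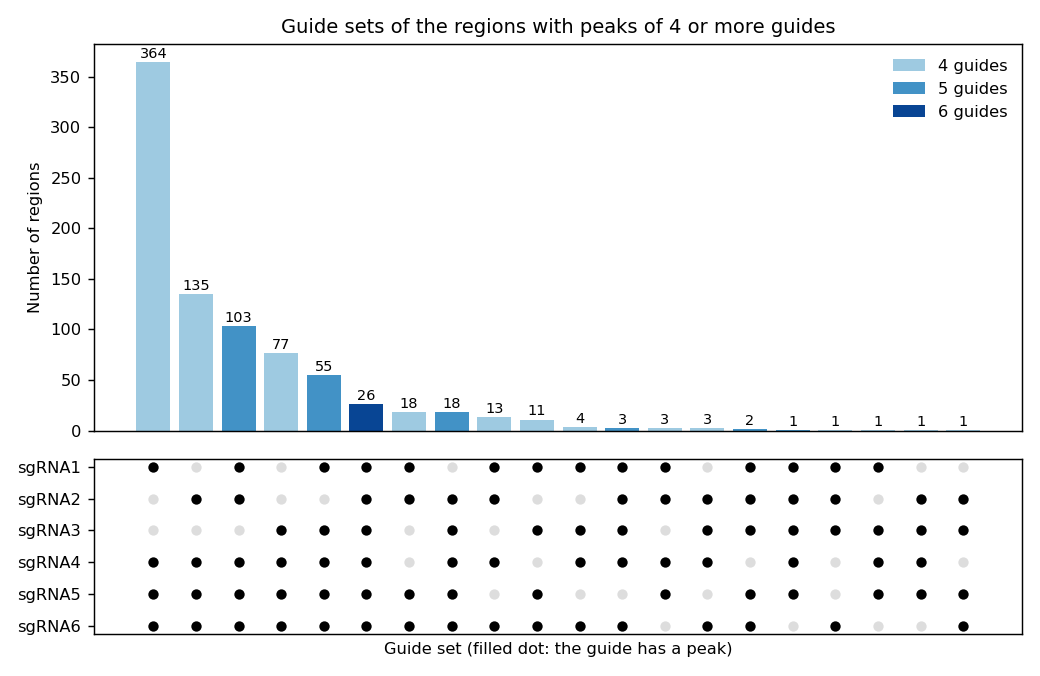
Number of regions (bars, top) for each guide set (filled dots, bottom) among the 840 regions with peaks of 4 or more guides, from 1 count over all lists, with no error bars. The 6 sets with all of sgRNA4, sgRNA5 and sgRNA6 and 1 or 2 further guides, together with the set of all 6 guides, hold 778 regions; the 364 regions with sgRNA1 and the trio form the highest bar.

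From the side of each list, the share of peaks that fell in these regions is partly set by the rule, since the peaks of a list help to decide which regions reach 4 guides. In the replicate 2 lists it was 609 of 1278 for sgRNA1 (47.7%, 95% Clopper-Pearson interval 44.9 to 50.4), 312 of 570 for sgRNA2 (54.7%, 50.5 to 58.9) and 203 of 382 for sgRNA3 (53.1%, 48.0 to 58.2). In the replicate 1 lists the share was 10 of 96 for sgRNA1 (10.4%, 5.11 to 18.3) and 3 of 41 for sgRNA3 (7.32%, 1.54 to 19.9), but 28 of 58 for sgRNA2 (48.3%, 35.0 to 61.8). In the long lists it was 868 of 13660 for sgRNA4 (6.35%), 892 of 8346 for sgRNA5 (10.7%) and 939 of 33611 for sgRNA6 (2.79%). These intervals cover counting error only, since peaks are not replicates, and no difference between lists was tested. When regions with 4 or more guides were counted from the other 5 guides alone, the shares of peaks inside were lower. They were then 3.12 and 15.2% in replicates 1 and 2 of sgRNA1, 29.3 and 25.4% for sgRNA2, 4.88 and 27.5% for sgRNA3, 1.60% for sgRNA4, 2.65% for sgRNA5 and 0.678% for sgRNA6. The order of the sgRNA2 replicates was thus turned round, while that of sgRNA1 and of sgRNA3 was not.

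Within the 840 regions the replicated guides were seen almost only through replicate 2. sgRNA1 had a peak in replicate 2 alone in 595 of its 605 regions, in replicate 1 alone in 4 and in both in 6. sgRNA2 had replicate 2 alone in 300 of 328, replicate 1 alone in 16 and both in 12. sgRNA3 had replicate 2 alone in 201 of 204, replicate 1 alone in 2 and both in 1. The number of regions therefore rested on these lists: without sgRNA1 replicate 2 it was 431, and without the replicate 2 lists of all 3 guides it was 35. It was 234, 225 and 209 without the single lists of sgRNA4, sgRNA5 and sgRNA6.

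In 17 regions at least 1 guide had a peak in both of its replicates, and 4 of these 17 held all 6 guides, 7 held 5 and 6 held 4. The region chr15:68132053-68133278 was the single one in which more than 1 guide, namely all 3, had a peak in both replicates. sgRNA1 was the repeated guide at chr1:85741505-85742818, chr15:75742294-75743607, chr17:34899871-34902042, chr17:71227723-71229659 and chr20:34286437-34287935. At the other 11 it was sgRNA2. Of these, 3 lay on chromosome 8, and the rest were chr1:144930545-144933159, chr1:243418182-243419893, chr2:182756635-182757655, chr3:51975476-51976748, chr5:140070386-140071608, chr10:46951170-46952181, chr14:93259933-93261416 and chr18:47013343-47014114.

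In most regions the peaks of the different guides covered the same bases rather than forming a chain. In 778 of 840 (92.6%) at least 1 base was covered by a peak of every guide counted in the region, and over these 778 the stretch common to all guides had a median of 544 bp. The share was 93.4% with 4 guides, 91.2% with 5 and 84.6% with 6, beside 94.2% of the 2333 regions with 3 guides. In 45 regions, 42 of them with 4 guides, no base was covered by more than 3 guides, so that only a chain of overlaps brought these to 4.

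Peak centres of different guides lay close together. Taking the highest peak of each guide in a region, the median distance between centres was between 114 bp (sgRNA3 and sgRNA5, 193 regions) and 198 bp (sgRNA3 and sgRNA4, 189 regions) over the 15 pairs of guides. Centres within 250 bp made up 60.2 to 76.8% of the regions of a pair. For comparison, the median peak in these regions was 956 bp wide in the sgRNA4 list, 834 bp in that of sgRNA5 and 997 bp in that of sgRNA6. The distance from the first to the last centre of a region had a median of 328 bp with 4 guides, 374 bp with 5 and 402 bp with 6. A larger number of centres widens this span by itself.

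One region, chr15:68132053-68133278, held a peak in all 9 lists. Every guide covered a common 458 bp of it, chr15:68132346-68132803, 1 peak per list. Its rank was first in 4 lists (replicate 2 of sgRNA1, sgRNA2 and sgRNA3, and sgRNA5), and 2, 2 and 3 in the replicate 1 lists of sgRNA1, sgRNA2 and sgRNA3. In the sgRNA4 and sgRNA6 lists it ranked 59 and 109, where it stood above 99.6 and 99.7% of the list.

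No region held a peak in 8 lists, and 3 held one in 7. Scores given here are the authors' values per peak, whose floor is 50 in every list, and a rank counts from 1 for the highest score of a list. At chr1:144930545-144933159 the peaks scored 185 (rank 16) in sgRNA1 replicate 2, 120 (rank 4) and 183 (rank 2) in the replicates of sgRNA2 and 150 (rank 8) in sgRNA3 replicate 2. The same region scored 234 (rank 591) with sgRNA4, 368 (rank 27) with sgRNA5 and 892 (rank 167) with sgRNA6, and all 6 guides shared 1398 bp. It was thus high in all 7 lists that held it.

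The region chr1:85741505-85742818 had peaks of 57.8 (rank 41 of 96) and 150 (rank 32) in the 2 replicates of sgRNA1, 121 (rank 12) in sgRNA2 replicate 2 and 121 (rank 15) in sgRNA3 replicate 2. With sgRNA4, sgRNA5 and sgRNA6 it scored 232 (rank 607), 117 (rank 919) and 560 (rank 603). It stood at percentile 57.8 of the sgRNA1 replicate 1 list and 97.5 of the replicate 2 list, where a percentile is the position of a peak in its own list (0 lowest, 100 highest). At chr10:46951170-46952181 sgRNA6 gave 1072 (rank 107), sgRNA5 153 (rank 387) and sgRNA4 167 (rank 1378), whereas the peaks of sgRNA1 replicate 2 (62.5, rank 681), sgRNA3 replicate 2 (56.9, rank 243) and sgRNA2 replicate 1 (53.4, rank 43 of 58) stood at percentiles 46.8, 36.5 and 26.7. sgRNA2 replicate 2 gave 87.1 (rank 49).

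The other 22 regions with all 6 guides had peaks in 6 lists each. At chr9:66492846-66494922 the scores were 290 (rank 7) for sgRNA1, 135 (rank 7) for sgRNA2 and 130 (rank 11) for sgRNA3, all from replicate 2, and 236 (rank 573), 504 (rank 12) and 303 (rank 2505) for sgRNA4, sgRNA5 and sgRNA6. At chr17:19551005-19552773 the replicate 2 scores were 144 (rank 41), 68.1 (rank 158) and 69.8 (rank 110), and the long lists gave 431 (rank 123), 344 (rank 33) and 906 (rank 164). The first of these regions stood high with every guide, and the second mainly with sgRNA1 and the trio.

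In several of these regions 1 guide gave a peak close to the floor. At chr3:135913792-135916292 sgRNA2 scored 51.5 (rank 498 of 570), while sgRNA1 gave 226 (rank 13), sgRNA3 146 (rank 9), sgRNA4 236 (rank 575), sgRNA5 163 (rank 307) and sgRNA6 227 (rank 4268). At chr17:39843858-39846282 it was sgRNA3, with 52.3 (rank 334 of 382), beside 154 (rank 29) for sgRNA1, 92.2 (rank 37) for sgRNA2, 256 (rank 462) for sgRNA4, 154 (rank 377) for sgRNA5 and 511 (rank 771) for sgRNA6. The other 5 guides stood well above the floor in both regions.

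At chr5:89769015-89770974 the scores were 142 (rank 42) for sgRNA1, 59.8 (rank 279) for sgRNA2, 59.7 (rank 204) for sgRNA3, 236 (rank 566) for sgRNA4, 227 (rank 95) for sgRNA5 and 294 (rank 2669) for sgRNA6. At chr6:131948856-131949904 they were 93.2 (rank 155), 103 (rank 25), 55.2 (rank 271), 461 (rank 105), 196 (rank 161) and 273 (rank 3100) in the same order. The sgRNA3 peak stood below the middle of its list in both regions, at percentiles 46.7 and 29.1. The remaining 16 regions with all 6 guides had median percentiles between 47.0 and 92.6, the median being over the lists.

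Over the 26 regions with all 6 guides, the peaks mostly stood in the upper part of each of the 6 longest lists. Percentiles from lists of different length are not on 1 scale, so they are given list by list. The median percentile was 95.6 with sgRNA4, 95.4 with sgRNA5 and 92.8 with sgRNA6, and it was 79.8, 78.9 and 65.6 in the replicate 2 lists of sgRNA1, sgRNA2 and sgRNA3. In the long lists 16, 15 and 18 of the 26 stood above the 90th percentile, and 2 in each fell below the 50th. In sgRNA3 replicate 2, 6 stood above the 90th and 9 below the 50th. At chr6:42980887-42982432, one of the lowest by median percentile (47.7), the 6 peaks stood at percentiles 30.4 to 62.4 and the guides shared only 55 bp. Chromosome 1 held 6 of the 26 and chromosome 17 held 4.

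**Figure D2:**
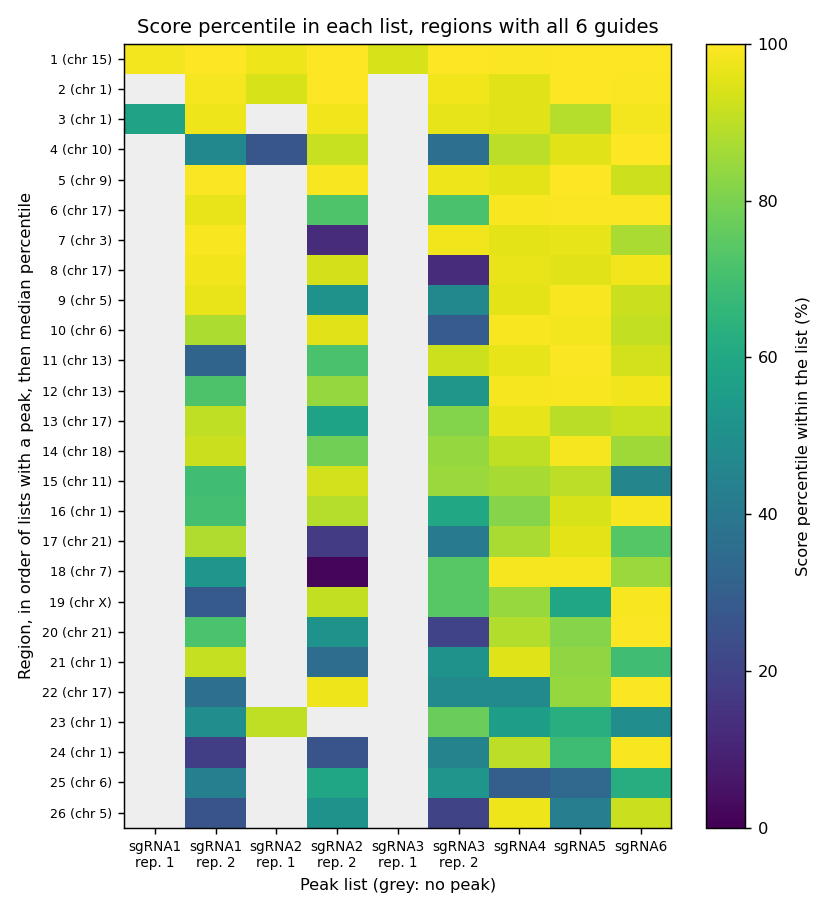
Score percentile within each peak list (colour, 0 to 100%) of the 26 regions with peaks of all 6 guides (rows, labelled by chromosome) in the 9 lists (columns), 1 value per region and list, grey where a list has no peak. The chromosome 15 region in the first row is the single row with no grey cell, and the sgRNA4, sgRNA5 and sgRNA6 columns are mostly above 90%.

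Among regions with 5 guides, the highest by median percentile was chr1:148598070-148599715, without a sgRNA2 peak, which scored 648 (rank 7) with sgRNA5, 1356 (rank 62) with sgRNA6, 165 (rank 6) with sgRNA3, 128 (rank 2454) with sgRNA4 and 70.7 (rank 453) with sgRNA1. At chr9:82184711-82187059, without sgRNA3, sgRNA4 gave 703 (rank 44), sgRNA5 253 (rank 69), sgRNA6 574 (rank 556), sgRNA1 154 (rank 28) and sgRNA2 73.3 (rank 111). The next 3 were chr16:30931968-30935364, without sgRNA1, chr1:32179899-32182489, without sgRNA3, and chr3:129829610-129831609, without sgRNA2. In these 5 the missing guide was always one of the first 3, as it was in 176 of all 182 regions with 5 guides (96.7%).

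Among regions with 4 guides, chr1:33282189-33284411 stood highest, with scores of 1596 (rank 44) for sgRNA6, 413 (rank 135) for sgRNA4, 210 (rank 126) for sgRNA5 and 93.7 (rank 35) for sgRNA3. It was followed by chr1:67390227-67392090, chr15:75917153-75918985, chr5:137799046-137801267 and chrX:112083311-112084960. At the second of these 5, the fourth guide, sgRNA2, had a peak of 52.7 (rank 467 of 570), whereas the trio ranked 204, 34 and 354.

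A total of 6 regions lacked a sgRNA6 peak although that list was the longest. The highest by median percentile was chr7:148036351-148037093, with 191 (rank 179) for sgRNA5, 90.4 (rank 186) for sgRNA1, 79.6 (rank 78) for sgRNA2 and 81.1 (rank 5961) for sgRNA4. The next were chr17:40086170-40087482 and chr19:37063904-37064915, where sgRNA5 gave 130 (rank 654) and 78.1 (rank 2722). The sgRNA4 peaks of these 3 regions ranked no better than 4561 of 13660.

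The 840 regions had a median width of 1440.5 bp, with the middle 50% between 1144 and 1817 bp. Joining more peaks widens a region by itself, and a wide peak meets other peaks more easily. The median width increased with the number of guides. It was 618 bp for a single guide and 1035 bp for a pair, 1284 bp at 3 guides, 1367 at 4, 1539 at 5 and 1708 at 6. Single peaks were wider too: the median sgRNA6 peak was 621 bp in regions of 1 guide and 1212 bp in regions of 6, and the median sgRNA4 peak 658 and 1168 bp. The widest, chr1:161418529-161429790, spanned 11262 bp and held sgRNA1, sgRNA4, sgRNA5 and sgRNA6 peaks, with scores of 95.7, 384, 132 and 317. The next widest, chr1:161411297-161418514 (7218 bp), lay only 14 bp before it and held the same 4 guides, with scores of 63.9, 145, 132 and 260, but no base of it was covered by more than 3. The 2 neighbours together spanned 18.5 kb. The next were chr7:150776294-150781223 (4930 bp), chrX:153569396-153573781 (4386 bp, all 6 guides) and chr16:29819989-29824207 (4219 bp).

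Regions just inside and just outside the threshold were close in median width, at 1367 bp with 4 guides and 1284 bp with 3. The median percentile over lists was 70.5 and 68.5, but it mixes lists that are not on 1 scale. Within the lists of sgRNA4, sgRNA5 and sgRNA6, peaks stood at 69.8, 75.0 and 80.9 with 4 guides. With 3 guides they stood at 64.1, 63.3 and 75.8. In sgRNA3 replicate 2 and sgRNA2 replicate 1 the 4-guide peaks stood lower, at 50.5 against 52.0 and 33.6 against 50.9. Of the 3-guide regions 1820 (78.0%) consisted of exactly sgRNA4, sgRNA5 and sgRNA6, and of the 4-guide regions 576 (91.1%) held this trio and 1 more guide. Chromosome 1 held 13.7% of the former and 19.0% of the latter.

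Peaks stood higher in their lists the more guides shared the region. In the sgRNA5 list the median percentile was 34.6 for peaks found with no other guide, 63.3 with 3 guides, 75.0 with 4, 85.0 with 5 and 93.8 with 6. In that of sgRNA6 the same medians were 43.2, 75.8, 80.9, 83.8 and 92.1, and in that of sgRNA4 they were 40.4, 64.1, 69.8, 81.6 and 90.6. In the replicate 2 lists the medians went from 35.9 to 79.9 for sgRNA1, from 34.4 to 78.9 for sgRNA2 and from 35.6 to 60.1 for sgRNA3, between 1 and 6 guides. The short list of sgRNA2 replicate 1 showed no steady order, with medians of 57.8 for 1 guide (15 peaks), 33.6 for 4 (11 peaks) and 92.2 for 6 (4 peaks). sgRNA3 replicate 2 was the single list of the 6 longest in which 4-guide peaks (50.5) did not stand above 3-guide peaks (52.0).

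**Figure D3:**
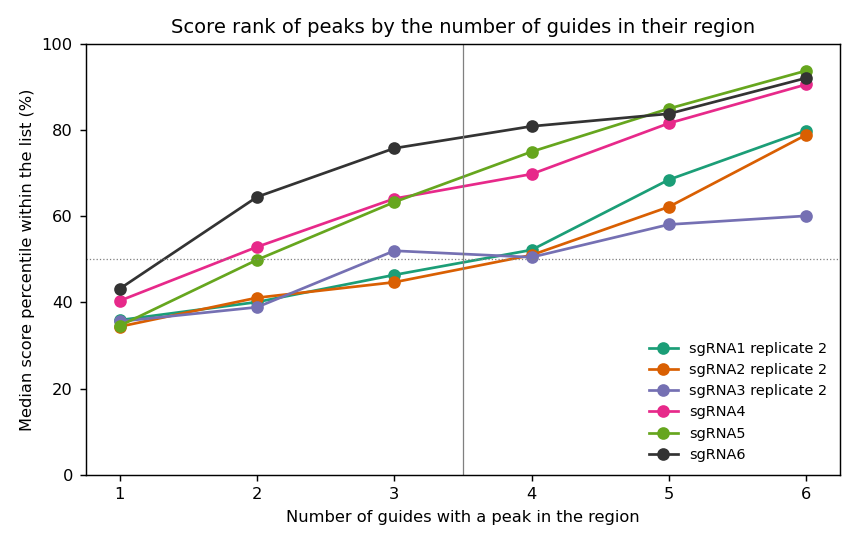
Median score percentile within a list (vertical axis, %) against the number of guides with a peak in the region (horizontal axis), for the 6 lists with at least 20 peaks at every number; points are medians over peaks, the dotted line is the 50th percentile and the vertical line marks the threshold of 4 guides. The medians of sgRNA4, sgRNA5 and sgRNA6 reach 90.6 to 93.8 with 6 guides, and that of sgRNA3 replicate 2 reaches 60.1.

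The same was seen inside the trio. In the 1820 regions with sgRNA4, sgRNA5 and sgRNA6 alone, their best peaks had median scores of 93.2, 75.5 and 170. With 1 further guide (576 regions) these were 104, 90.3 and 197, with 2 (176 regions) 134, 115 and 238, and with 3 (26 regions) 233, 153 and 307. In percentiles, the sgRNA5 peaks stood at 64.1, 77.4, 88.5 and 95.4. Regions that also held sgRNA1, sgRNA2 or sgRNA3 thus had higher medians in all 3 long lists. Even so, most of the highest peaks of the long lists lay elsewhere: of the highest 10% of each list by score, 16.0% of sgRNA4, 33.1% of sgRNA5 and 9.70% of sgRNA6 peaks fell in the 840 regions. In the lowest 10% these shares were 2.33, 3.23 and 0.862%. The highest peak inside the 840 regions ranked 14 with sgRNA4, 1 with sgRNA5 and 24 with sgRNA6.

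Each guide was left out in turn and regions were rebuilt from the other 5, so that its own peaks did not choose the rebuilt regions. The shares of these regions with a peak of the left-out guide still count the same overlaps of peaks as the guide sets above. They describe that overlap from the side of each guide and are not a separate measure of it. Regions with peaks of 4 or more of the other 5 guides held a peak of the left-out guide far more often than the rest. For sgRNA1 it was 189 of 424 (44.6%, 95% Clopper-Pearson interval 39.8 to 49.4), where 2.65% of all regions made from the other guides held a sgRNA1 peak. sgRNA2 was found in 153 of 665 (23.0%, 19.9 to 26.4; all regions 1.35%) and sgRNA3 in 105 of 741 (14.2%, 11.7 to 16.9; all regions 0.734%). The order of the 3 guides was that of the length of their lists, whose part in these shares was not tested. Sharing 1 bp is also easier with a wide region. With all 6 guides pooled, the median width was 618 bp in regions of 1 guide and 1367 bp in regions of 4. The part of width in these shares was not tested.

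The long lists reached nearly all such regions. sgRNA4 had a peak in 201 of 234 (85.9%, 80.8 to 90.1; all regions 19.7%), sgRNA5 in 201 of 225 (89.3%, 84.5 to 93.0; all regions 13.2%) and sgRNA6 in 203 of 209 (97.1%, 93.9 to 98.9; all regions 46.3%). For every guide the share increased at each step from 1 to 4 other guides. From 4 to 5 it was higher for sgRNA1, sgRNA2, sgRNA3 and sgRNA4 and not for sgRNA5 and sgRNA6. The intervals at 4 and 5 overlapped for every guide, and this last step was not tested. For sgRNA4, sgRNA5 and sgRNA6 only 27, 28 and 26 regions had all 5. Regions are not replicates, so these shares carry counting error only and were not tested. Almost all sgRNA1 and sgRNA3 recoveries came from replicate 2, since the replicate 1 lists alone held peaks in 0.708% and 0.270% of the same regions, and that of sgRNA2 in 2.56%.

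**Figure D4:**
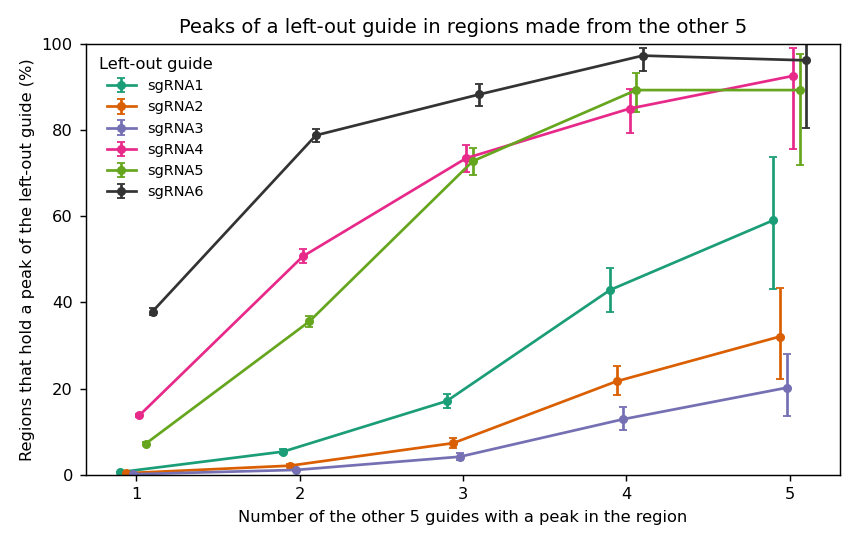
Share of regions (vertical axis, %) that hold a peak of the left-out guide (colour) against the number of the other 5 guides with a peak there (horizontal axis); bars show the 95% counting interval (Clopper-Pearson). The sgRNA1 curve goes from 0.609% at 1 other guide to 59.1% at 5, and the sgRNA6 curve from 37.9% to 96.2%.

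Peaks of the left-out guide also stood higher in their own list when they fell in these regions. For each guide the median percentile of its peaks inside minus outside regions of 4 or more of the other 5 was taken, and replicates were averaged. The difference in score percentile was 28.1 points for sgRNA1, 22.8 for sgRNA2, 23.8 for sgRNA3, 35.1 for sgRNA4, 37.5 for sgRNA5 and 36.6 for sgRNA6. The mean was 30.7 points with an SD of 6.6 over the guides. The value of sgRNA3 averaged 35.4 points in replicate 1, from 2 peaks inside, and 12.3 in replicate 2, from 105 peaks inside. That of sgRNA1 averaged 32.3 points from 3 peaks inside and 24.0 from 194. That of sgRNA2 averaged 27.6 points from 17 peaks inside and 18.0 from 145. The shorter replicate 1 list thus gave the higher value for each of these guides. These differences are descriptions: the region sets of any 2 guides share 4 guides, so the guides are not independent replicates. The planned permutation test of them is given with the processing below, and nothing is supported with it. In scores, the medians inside and outside were 138 and 75.3 for sgRNA4, 109 and 65.7 for sgRNA5 and 218 and 89.5 for sgRNA6. The sgRNA1 replicate 2 peaks had medians of 74.7 inside and 62.2 outside, and those of sgRNA3 replicate 2 had 63.4 and 59.5. The medians inside were above those outside in all 9 lists.

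Peaks inside these regions had higher median widths for each guide, with a mean difference of 23.0 points in width percentile (SD over guides 13.5), from 4.0 for sgRNA3 to 38.1 for sgRNA6. Sharing 1 bp with a region is easier for a wide peak, so the way of counting favours this direction. With sgRNA6 the median width was 1104.5 bp inside and 668 bp outside, and with sgRNA3 replicate 2 763 and 662 bp. In sgRNA3 replicate 1 the difference was -11.0 points, from 2 peaks inside, so that without sgRNA3 replicate 2 the difference was positive for 5 of 6 guides. When scores were compared only between peaks of similar width, within 10 width classes of each list, the mean score difference was 18.0 points in place of 30.7, and it was positive for 6 of 6 guides. The value of sgRNA3 averaged 54.3 points in replicate 1, from at most 2 peaks inside, and 5.6 in replicate 2, so replicate 1 raised the mean. In replicate 2 of sgRNA1 and sgRNA2 the difference was 16.2 and 13.8 points. With sgRNA4, sgRNA5 and sgRNA6 it was 14.8, 16.3 and 11.0 points. This comparison was chosen after the data were seen.

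The 840 regions were unevenly spread over the chromosomes. Chromosome 1 held 179 (21.3%), where it held 11.6% of all 43438 regions. In other words, 3.56% of the chromosome 1 regions (95% interval 3.06 to 4.11) had 4 or more guides, and 1.72% of those on the other chromosomes (1.59 to 1.86). Its share was 11.3% of the regions of a single guide, 10.9 and 13.7% at 2 and 3 guides, and 19.0, 29.1 and 23.1% at 4, 5 and 6 guides. Chromosome 18 came next, with 16 of 535 regions (2.99%, 1.72 to 4.81), followed by chromosome 6 (2.58%), chromosome 3 (2.53%) and chromosome 5 (2.35%). Chromosome Y had none among its 42 regions (95% interval 0 to 8.41%). Of the other chromosomes, the lowest shares were on chromosomes 10 (0.811%, 0.455 to 1.33), 20 (0.906%), 11 (0.996%), X (1.09%) and 19 (1.13%). Shares were also counted with 1 guide left out, which left 234, 225 and 209 regions without sgRNA4, sgRNA5 and sgRNA6. Chromosome 19 held 4.05% of all regions with 4 or more guides. It held 2.14, 2.22 and 2.39% without sgRNA4, sgRNA5 and sgRNA6, outside the 95% counting interval of 4.05%. That interval leaves out the counting error of the smaller sets, which also needed 4 of only 5 guides. Whether the share on chromosome 19 differed was not tested. Chromosome 10 held 1.79%, and 2.87% without sgRNA6. Chromosome 18 held 1.90%, and 2.99 and 2.87% without sgRNA4 and sgRNA6. On chromosomes 10 and 18 the later values lay within the counting interval of the first.

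The comparison was repeated within the 2598 regions with all of sgRNA4, sgRNA5 and sgRNA6. Of these 778 (29.9%) held a further guide. The share was 40.2% on chromosome 1 (167 of 415, 95% interval 35.5 to 45.1) and 28.0% on all other chromosomes together (611 of 2183, 26.1 to 29.9). It was 48.4% on chromosome 18 (15 of 31, 30.2 to 66.9), and lowest on chromosome 10 (13.9%, 11 of 79, 7.16 to 23.5), chromosome X (16.2%, 12 of 74) and chromosome 11 (18.8%, 22 of 117). Each of the first 3 guides was more frequent in these regions on chromosome 1 than elsewhere: 28.2 against 19.7% for sgRNA1, 15.4 against 9.99% for sgRNA2 and 12.0 against 5.77% for sgRNA3.

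**Figure D5:**
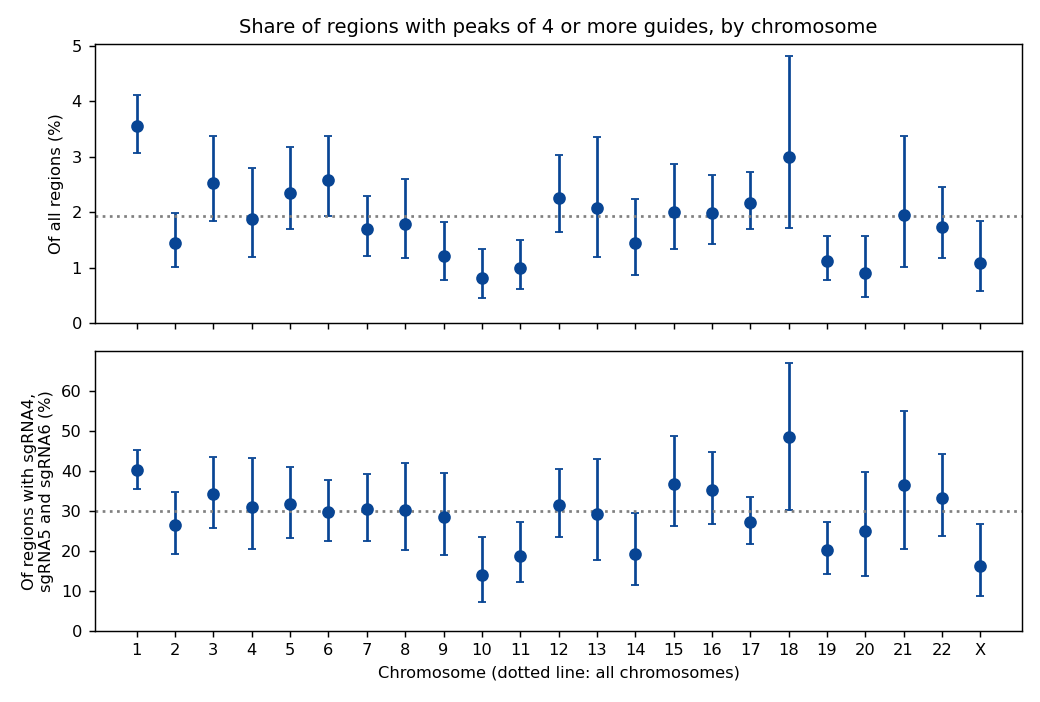
Share of regions with peaks of 4 or more guides (vertical axes, %) on each chromosome but Y (horizontal axis). The top panel is of all regions and the bottom panel of the regions with sgRNA4, sgRNA5 and sgRNA6 peaks. Bars are 95% Clopper-Pearson intervals for counting error. Dotted lines are the shares over all chromosomes, 1.93% and 29.9%. Chromosome 1 lies above both lines (3.56% and 40.2%) and chromosome 10 below both (0.811% and 13.9%).

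Along chromosome 1 the share was not even. The longest stretch without a peak in any list, 121261886 to 142656001 (21.4 Mb), divides the chromosome. Before it 88 of 2955 regions (2.98%, 2.40 to 3.66) had 4 or more guides and after it 91 of 2074 (4.39%, 3.55 to 5.36). Among regions with the trio the sides were close, at 39.5% (81 of 205) and 41.0% (86 of 210). In windows of 10 Mb the share of all regions was 1.16% in the first window and 1.24% in the second, and reached 10.4% from 80 to 90 Mb (7 of 67) and 10.0% from 90 to 100 Mb (9 of 90). The first window held the most regions (602) and had the lowest share of the chromosome.

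Ends of chromosomes, with Y left out, held few of the 840 regions. Within 5 Mb of the first or last peak of a chromosome, 77 of 9215 regions (0.836%, 95% interval 0.660 to 1.04) had 4 or more guides, and elsewhere 763 of 34181 (2.23%, 2.08 to 2.39). Among regions with the trio the difference was smaller, with 24.1% of 291 near ends and 30.7% of 2307 elsewhere.

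When those of the 840 regions that lay less than 1 Mb apart were chained, 570 fell into 161 groups of 2 or more and 270 stood alone. How many of any 840 regions would do so was not counted. These numbers therefore do not show that the 840 lay closer together than other regions. The largest 3 groups held 16 regions each. The group at chr1:224803278-229695454 held 10 regions with 4 and 6 with 5 guides, which were 6.75% of the 237 regions of any kind in that span. The group at chr16:28834876-31106430 held 11 with 4 and 5 with 5 guides (7.80% of 205), all with the trio. The group at chr17:16118162-21118471 held 12 with 4, 2 with 5 and 2 with all 6 guides (5.32% of 301), the latter being chr17:19551005-19552773 and chr17:19911312-19914049. These shares were 2.75 to 4.04 times the 1.93% over all regions, but the spans were found by looking for many regions.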

How the data were processed

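HA ChIP-seq of 6 guides was analysed from 9 deposited peak lists; 3 of the 12 samples described, dCas9 alone and 2 with cutting Cas9, were not analysed here. The submitters' processing notes name Bowtie, Bowtie2, MACS and the build hg19, with no role or version. Each list gives, per the file as deposited by the authors, a start, an end and a score per peak; how the score was made is not given in the sources used here, and it is never below 50. With no read counts, depth is unknown, and scores were compared only within a list, as percentiles. Lists were treated as called per sample, since each belongs to 1 sample.

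All 58042 peaks were pooled and joined where they shared at least 1 bp. Samples were grouped by guide as in the labels. Intervals are 95% Clopper-Pearson intervals. For left-out guides the design set an exact two-sided sign-flip permutation over 6 guides, with Benjamini-Hochberg adjustment over 2 tests. This exact permutation test gave p = 0.0312 for score and for width, the smallest that 64 arrangements allow, but the region sets of the guides overlap, so nothing is supported with it. The scripts were tested on simulated data (Python 3.11.15, numpy 2.4.6, pandas 2.3.3, scipy 1.17.1). Regions named are those with 6 guides, ordered by the number of lists and median percentile, the first 10 in full and the others mostly as a range; the 5 highest with 5 and with 4 guides; the 5 widest; the 3 largest groups; the 3 highest without sgRNA6; and those with guides in both replicates, of which those with 1 such guide were added after their values were seen. The regions and these rules were chosen with earlier results of these data known. No hg19 genome or gene annotation was used here, so genes, sequences and base composition are not given.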

Additional observations from a re-analysis of the deposited data

How the results depend on the processing

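Of 229 alternative values for 16 results, 165 stayed within the spread set for them or on the same side of the threshold, 62 moved, 2 lost the threshold and none reversed. The number of regions, 840, was 322 from the upper 50% of scores of each list, 16 when replicated guides counted only with a peak in both replicates, and 424, 234, 225 and 209 when sgRNA1, sgRNA4, sgRNA5 or sgRNA6 was left out, where fewer guides are available to reach 4. Leaving out replicate lists of sgRNA1, sgRNA2 and sgRNA3, singly or all of 1 replicate number, gave 35 (all replicate 2 lists) to 839. It was 431 without sgRNA1 replicate 2. The share with sgRNA4, sgRNA5 and sgRNA6 was 100% with both replicates required. It was 97.4, 96.7 and 94.6% when sgRNA1, sgRNA2 or sgRNA3 was left out, and 92.7 to 97.2% when these replicate lists were left out. The median width was 1306 and 1374.5 bp when peaks had to share 50 or 25% of both peaks. It was 1607 bp when peaks were joined within 1000 bp, and 1314 bp with both replicates required. Without sgRNA5 it was 1497 bp, and when these replicate lists were left out it was 1361 to 1467 bp. Chromosome 1 held 24.3, 27.8, 28.0 and 28.2% without sgRNA1, sgRNA4, sgRNA5 and sgRNA6, and 20.9 to 24.1% when these replicate lists were left out. The causes of these moves were not tested beyond the construction named.

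The score difference of left-out guides was 27.3 to 48.7 points when replicate lists of sgRNA1, sgRNA2 and sgRNA3 were left out. The width difference was then 20.3 to 27.7 points. Without sgRNA3 replicate 2 they were 31.2 and 20.3 points and the adjusted p of the planned exact permutation test was 0.0625 for both, which leaves sgRNA3 on a list with 2 peaks inside. Shares recovered with exactly 1, 2, 3 and 5 other guides were 0.609, 5.38, 17.1 and 59.1% for sgRNA1, 0.371, 2.11, 7.35 and 32.1% for sgRNA2, 0.132, 1.13, 4.19 and 20.2% for sgRNA3, and 13.8, 50.7, 73.5 and 92.6% for sgRNA4. With 1, 2 and 3 they were 7.26, 35.6 and 72.8% for sgRNA5 and 37.9, 78.8 and 88.3% for sgRNA6. Replicate 1 alone gave 0.708% (sgRNA1), 2.56% (sgRNA2) and 0.27% (sgRNA3), and the upper 50% of scores gave 94.0% for sgRNA5. No paired analysis was possible because sgRNA4 to sgRNA6 have no replicate number to share with the other guides and no result compares samples across groups; peaks inside and outside regions were compared within each list. The base composition planned as a result was not run. Joining at 25%, the comparison within 10 width classes and the chromosome 1 share among regions with sgRNA4, sgRNA5 and sgRNA6 were chosen after seeing the data.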
